A study of Arabidopsis thaliana with 6 samples.

Results

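The miRNAs described here are those of Arabidopsis whose known targets are genes of the small RNA machinery itself: ath-miR162 (target DCL1), ath-miR168 (target AGO1) and ath-miR403 (target AGO2), written miR162, miR168 and miR403 from here on. Every sequence of the deposited miRNA table named miR162, miR168 or miR403 was taken, with all gene copies and both strands of the hairpin. This gave 7 of the 349 mature sequences in the table, 2 of miR162, 3 of miR168 and 2 of miR403. The rule uses the names alone.

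Rosette leaves of plants kept in soil for 3 weeks were used for small RNA sequencing, with 3 genotypes and 2 biological replicates of each. The wild type (WT) was Columbia-0 (Col-0), and both mutants were in this ecotype. hyl1-2 is a single mutant of HYL1, the double-stranded RNA-binding partner of the miRNA-processing enzyme. snrk2.2/3/6 is a triple mutant that lacks the SnRK2 kinases known for their part in abscisic acid signalling, and the comparison asked how the loss of these kinases affects miRNA levels next to the loss of HYL1. Each mutant was represented by a single allele or allele combination, and no complemented line was among the libraries. The labels do not say how many plants were pooled in a library. The table holds miRNAs only, so that neither the mutated genes nor the mRNAs of DCL1, AGO1 and AGO2 could be checked in it.

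In plants, DCL1 cuts the hairpin of a miRNA precursor with the help of HYL1 and releases a duplex of 2 strands, called 5p and 3p after their arm of the hairpin. One of them, the guide strand, is loaded into an ARGONAUTE protein, usually AGO1, and directs it to complementary mRNAs, while the other strand is mostly degraded. DCL1 mRNA is a target of miR162, AGO1 mRNA of miR168, and AGO2 mRNA of miR403, so each of these miRNAs acts on a gene of the pathway that makes or uses it. AGO2 and its close relative AGO3 are further ARGONAUTE proteins, and AGO2 is known for antiviral defence.

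The 7 sequences are shown first because the counting rests on them: only reads identical to one of them were counted. They are given from 5′ to 3′ as in the deposited table, with T for U and with the seed (bases 2 to 8) in capitals.
miR162a-3p/b-3p: tCGATAAAcctctgcatccag
miR162a-5p/b-5p: tGGAGGCAgcggttcatcgatc
miR168a-5p/b-5p: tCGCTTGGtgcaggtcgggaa
miR168a-3p: cCCGCCTTgcatcaactgaat
miR168b-3p: cCCGTCTTgtatcaactgaat
miR403-3p: tTAGATTCacgcacaaactcg
miR403-5p: tGTTTTGTgcttgaatctaatt
The 3 known guide strands are miR162a-3p/b-3p, miR168a-5p/b-5p and miR403-3p, each 21 nt long and each with T as its first base. The 7 sequences have 7 different seeds, and 0 other sequences of the table share a seed with any of them. MIR162a and MIR162b give identical sequences on both strands, and MIR168a and MIR168b give an identical 5p strand, so that the reads of these copies cannot be told apart. Only the 3p strands of miR168 separate the copies. They differ by C5T and C10T from miR168a-3p to miR168b-3p, with positions counted from the 5′ end.

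All 7 sequences were placed on the TAIR10.1 assembly by exact match, each within its own miRNA gene, and no other annotated gene overlaps them. MIR162a (AT5G08185) occupies chromosome 5, 2634905 to 2635044, minus strand, and its 3p strand is at 2634936 to 2634956. MIR162b (AT5G23065) occupies chromosome 5, 7740598 to 7740708, minus strand, and its 3p strand is at 7740610 to 7740630. The miR168 5p strand is encoded by MIR168a (AT4G19395) on chromosome 4 at 10578652 to 10578672, plus strand, and by MIR168b (AT5G45307) on chromosome 5 at 18358873 to 18358893, minus strand. The single MIR403 gene (AT2G47275) holds miR403-3p on chromosome 2 at 19415154 to 19415174, plus strand.

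The sites of the 3 guide strands in the silencing genes are shown because they are what ties these miRNAs to the pathway. They were found in the RefSeq transcripts of TAIR10.1, and the capitals mark bases of the mRNA that do not form a Watson-Crick pair with the miRNA.
DCL1 site of miR162a-3p/b-3p: ctggatgcagaggtAttatcga
DCL1 site of miR162a-3p/b-3p, other transcript: ctggatgcagaggttGTATtatcga
AGO1 site of miR168a-5p/b-5p: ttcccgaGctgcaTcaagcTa
AGO2 site of miR403-3p: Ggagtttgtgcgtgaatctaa
AGO3 site of miR403-3p: GATgtttgtgcgtgaatctaa
The DCL1 site (AT1G01040, chromosome 1, plus strand) spans the junction of exons 12 and 13, from 27522 to 27627, and its sequence depends on where exon 12 ends. In the transcript whose exon 12 ends at 27533 all 21 bases of the miRNA pair and 1 base of the mRNA is left unpaired, while in the transcript whose exon 12 ends at 27536 the same pairing leaves 4 bases of the mRNA unpaired. Full pairing with at most 1 unpaired mRNA base was found in 1 of 31464 genes (0.00318%), which was DCL1; this rule was shaped to the bulge of that site. The AGO1 site (AT1G48410, chromosome 1, 17891529 to 17891549, minus strand) lies in the coding sequence in exon 2 and pairs at 18 of 21 bases. The AGO2 site (AT1G31280, chromosome 1, 11185223 to 11185243, plus strand) lies in the 3′ UTR and pairs at 20 of 21 bases, with only the last base of the miRNA unpaired. The AGO3 site (AT1G31290, chromosome 1, 11192399 to 11192419, plus strand) is also in the 3′ UTR and pairs at 18 of 21 bases. With a penalty of 1 for a mismatch and 0.5 for a G:U pair, AGO1 at 2.5 and AGO2 at 1.0 each had the best site of their miRNA among 31460 genes, and 3 genes (0.00954%) were at or below the penalty of 3.0 of AGO3. By the same scoring, which allows no bulge, the best window of miR162a-3p/b-3p in DCL1 had a penalty of 4.5, and 66 genes (0.21%) were at or below it, so that DCL1 did not stand out. Such a match is a description of the letters and does not show that a site is cut in these leaves.

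Levels are given as reads and as RPTM, the reads per 10000000 genome-matched small RNA reads of a library. The genome-matched reads numbered 16041013 to 19601046 per library and the miRNA reads 6670 to 34567, and 3 reads, taken as the floor, equal 1.53 to 1.87 RPTM. snrk2.2/3/6 replicate 2 stands apart from its partner before any of the 7 miRNAs is considered: among the 59 miRNAs with at least 10 RPTM in WT, the median level relative to the WT mean was 83.2% in replicate 1 and only 27.4% in replicate 2, while the hyl1-2 replicates were close to each other (13.1% and 15.3%). In bulk leaf RNA, fewer cells that make a miRNA and less of it per cell cannot be told apart. Reads carried no molecular identifiers, so that the intervals and floors given here cover counting error only.

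Summed over the 7 sequences, WT held 1525 and 1269 reads, hyl1-2 held 282 and 169, and snrk2.2/3/6 held 1179 and 294. As a share of all miRNA reads they made up 4.41% (95% Wilson interval 4.20 to 4.63%) and 4.17% (3.95 to 4.40%) in WT while hyl1-2 had 3.95% (3.52 to 4.43%) and 2.53% (2.18 to 2.94%). In snrk2.2/3/6 they made up 4.06% (3.84 to 4.30%) and 2.83% (2.53 to 3.17%). The share was thus lowest in replicate 2 of each mutant, and replicate 1 of each lay close to WT.

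miR162, which targets DCL1, was the family with the lowest level relative to WT in both mutants. Its guide strand miR162a-3p/b-3p ranked 8 among the miRNAs by mean level in WT. WT held 813 and 656 of its reads, hyl1-2 held 92 and 21, and snrk2.2/3/6 held 426 and 120. Its level was 497 and 402 RPTM for WT, 46.9 and 11.4 for hyl1-2, and 252 and 74.8 for snrk2.2/3/6. The 3 genotypes did not overlap: both hyl1-2 libraries lay below both snrk2.2/3/6 libraries, and these below both WT libraries. Mean levels were 449.9 ± 67.0 RPTM for WT, 29.2 ± 25.1 for hyl1-2 (6.48% of WT) and 163 ± 125 for snrk2.2/3/6 (36.3% of WT; SD, n = 2). The other strand, miR162a-5p/b-5p, was rare: WT held 12 and 4 reads of it, hyl1-2 held 0 in both libraries, and snrk2.2/3/6 held 4 and 1. With hyl1-2 set to the floor of 3 reads per library, it was at least 3.10-fold lower there than in WT. In snrk2.2/3/6 its pooled reads were 31.0% of WT (exact 95% interval 8.88 to 88.5%).

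miR168, which targets AGO1, had similar numbers of reads from both strands in WT and was, in RPTM, the family with the smallest distance between hyl1-2 and WT, with a sign that turned when libraries were scaled by their miRNA counts. Of the guide strand miR168a-5p/b-5p, WT held 75 and 56 reads, hyl1-2 held 44 and 54, and snrk2.2/3/6 held 51 and 12. Its level was 45.9 and 34.4 RPTM for WT, 22.4 and 29.3 for hyl1-2, and 30.2 and 7.48 for snrk2.2/3/6. Both libraries of each mutant were below both WT libraries, while the mutants overlapped with each other because snrk2.2/3/6 held both the highest and the lowest of these 4 values. Mean levels were 40.1 ± 8.14 RPTM for WT, 25.9 ± 4.87 for hyl1-2 (64.5% of WT) and 18.8 ± 16.1 for snrk2.2/3/6 (47.0% of WT; SD, n = 2).

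The 3p strand of the MIR168a copy was about as abundant as the guide. WT held 93 and 50 reads of miR168a-3p, hyl1-2 held 56 and 19, and snrk2.2/3/6 held 92 and 27. In the same order these are 56.9 and 30.7, 28.6 and 10.3, and 54.5 and 16.8 RPTM. Its hyl1-2 libraries were below both WT libraries, the higher of them only narrowly, and its snrk2.2/3/6 libraries overlapped with WT. Mean levels were 43.8 ± 18.5 RPTM for WT, 19.4 ± 12.9 for hyl1-2 (44.4% of WT) and 35.6 ± 26.6 for snrk2.2/3/6 (81.4% of WT; SD, n = 2). The 3p strand of the MIR168b copy was much rarer: WT held 7 and 12 reads of miR168b-3p, hyl1-2 held 2 and 0, and snrk2.2/3/6 held 17 and 2. Its pooled reads in hyl1-2 were 9.04% of WT (exact 95% interval 1.02 to 37.5%) and in snrk2.2/3/6 99.1% (49.7 to 198%), a wide interval.

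miR403, which targets AGO2, was low in hyl1-2 and overlapped with WT in snrk2.2/3/6. Of its guide strand miR403-3p, WT held 490 and 446 reads, hyl1-2 held 80 and 58, and snrk2.2/3/6 held 510 and 115. Its level was 299.7 and 274 RPTM for WT, 40.8 and 31.5 for hyl1-2, and 302 and 71.7 for snrk2.2/3/6. Replicate 1 of snrk2.2/3/6 was at the level of WT and replicate 2 far below it, whereas both hyl1-2 libraries were below all others. Mean levels were 287 ± 18.4 RPTM for WT, 36.2 ± 6.58 for hyl1-2 (12.6% of WT) and 187 ± 163 for snrk2.2/3/6 (65.2% of WT; SD, n = 2). Of the other strand, miR403-5p, WT held 35 and 45 reads, hyl1-2 held 8 and 17, and snrk2.2/3/6 held 79 and 17. Its mean level was 24.5 ± 4.39 RPTM for WT, 6.66 ± 3.64 for hyl1-2 (27.2% of WT) and 28.7 ± 25.6 for snrk2.2/3/6 (117% of WT; SD, n = 2). In snrk2.2/3/6 it lay above both WT libraries in replicate 1 and below both in replicate 2.

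**Figure D1:**
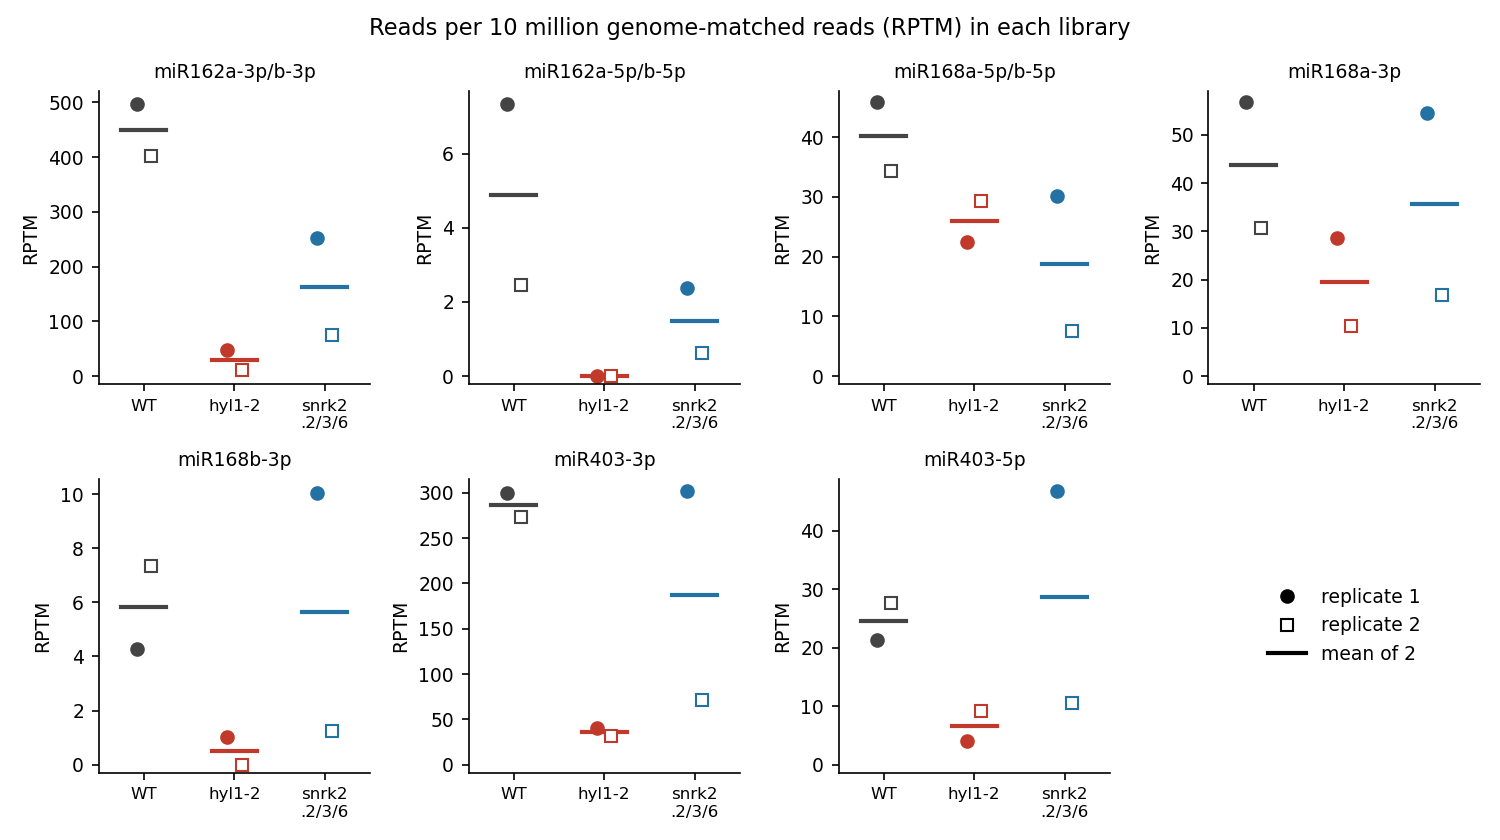
Level of each of the 7 sequences in RPTM (reads per 10000000 genome-matched reads, linear axis from 0) in WT, hyl1-2 and snrk2.2/3/6, with replicate 1 as filled circles, replicate 2 as open squares and the mean of 2 as a line. miR162a-3p/b-3p sits at 46.9 and 11.4 RPTM in hyl1-2 against 497 and 402 in WT, and replicate 2 of snrk2.2/3/6 is below replicate 1 for all 7.

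The mature sequences are of nearly the same length, 21 or 22 nt, and their RPTM needs no correction for it. How well each sequence was ligated and amplified was not tested, so the order is one of reads and may not be that of molecules. In WT the order of the means was miR162a-3p/b-3p, miR403-3p, miR168a-3p, miR168a-5p/b-5p, miR403-5p, miR168b-3p and miR162a-5p/b-5p. The libraries of miR162a-3p/b-3p and miR403-3p did not overlap, nor did those of miR403-3p and miR168a-3p. The neighbours miR168a-3p and miR168a-5p/b-5p overlapped, as did miR168b-3p and miR162a-5p/b-5p. The libraries of miR168a-5p/b-5p and miR403-5p did not overlap, nor did those of miR403-5p and miR168b-3p. In hyl1-2 the 3 guide strands came close to each other: miR403-3p was at 36.2 ± 6.58 RPTM, miR162a-3p/b-3p at 29.2 ± 25.1 and miR168a-5p/b-5p at 25.9 ± 4.87, all within the spread of miR162a-3p/b-3p. In WT their means had ranged from 40.1 to 449.9 RPTM.

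For 5 of the 7 sequences the WT mean was at least 10 RPTM, the limit applied by the study, and the rarer strands miR162a-5p/b-5p and miR168b-3p were below it. In hyl1-2, 4 of these 5 were at or below 50% of WT, where 89.8% of the 59 miRNAs over the limit were. The exception was miR168a-5p/b-5p at 64.5%. In snrk2.2/3/6, 2 of the 5 were at or below 50% of WT, miR162a-3p/b-3p and miR168a-5p/b-5p, where 45.8% of the 59 were. Without snrk2.2/3/6 replicate 1 this count was 5 of 5, and the median of the 59 in the remaining library was 27.4% of WT. Without replicate 2 the count was 0, with a median of 83.2% in the remaining library. Without WT replicate 1 the count was 1. The share of the 59 was not counted under these omissions. The miRNAs of this list whose mutant libraries both lay below both WT libraries were 5 of 5 in hyl1-2 (93.2% of the 59) and 2 of 5 in snrk2.2/3/6 (55.9%). Relative to WT the median of the 5 was 27.2% in hyl1-2, where that of the 59 was 14.5%, and 65.2% in snrk2.2/3/6, where that of the 59 was 53.3%. Both sets of values use the same 2 WT libraries.

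**Figure D2:**
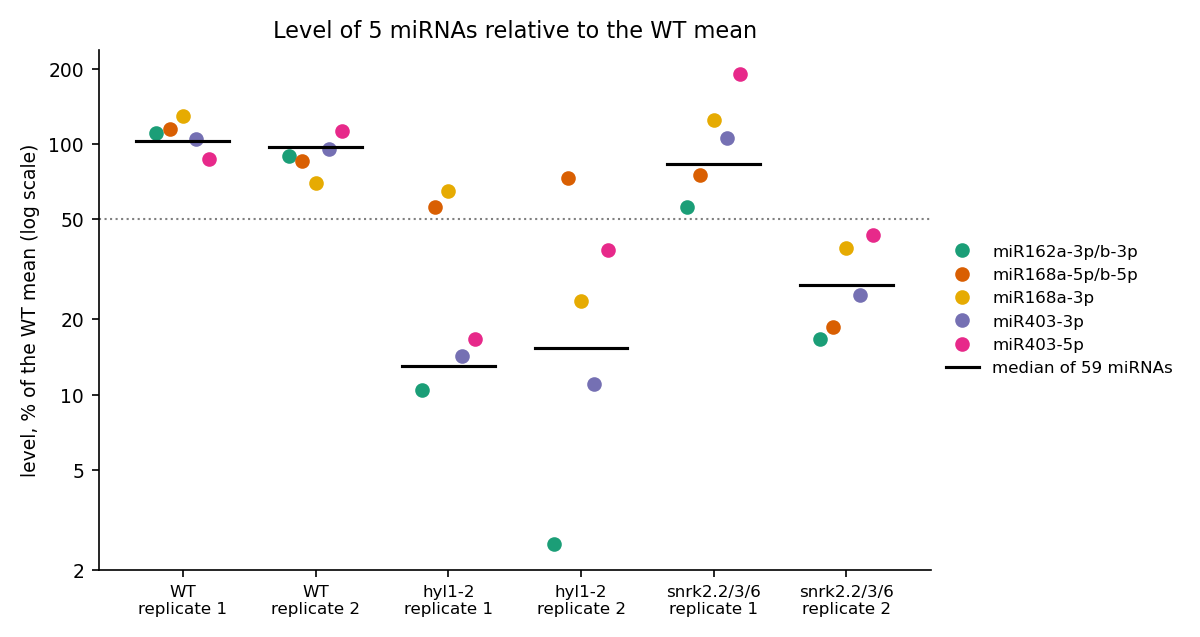
Level of the 5 miRNAs with at least 10 RPTM in WT in each of the 6 libraries, in percent of the WT mean on a log axis, with the median of the 59 miRNAs over the same limit as a black line and 50% as a dotted line. In both hyl1-2 libraries miR168a-5p/b-5p, at 56.0% and 73.1%, is far above the median of 13.1% and 15.3%, and miR162a-3p/b-3p, at 10.4% and 2.54%, is below it.

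Differences in counts were then tested by quasi-likelihood in edgeR. The fit held the 59 sequences whose mean over the 6 libraries reached 10 reads. Library sizes were the genome-matched totals, and p-values were adjusted over the 59 by Benjamini-Hochberg. These 59 overlap with the 59 miRNAs of at least 10 RPTM in WT but are not the same set. For example, miR390a-3p, at 17.1 and 4.91 RPTM in WT, was over that limit but not tested. The same 5 of the 7 sequences were tested. At an adjusted p under 0.05, miR162a-3p/b-3p and miR403-3p were lower in hyl1-2, 2 of 5, where 67.8% of all tested miRNAs were lower, and 0 of 5 were higher (1.69% of all). miR162a-3p/b-3p fell by 3.94 on the log2 scale (standard error 1.03, adjusted p = 0.000681, edgeR). miR403-3p fell by 2.98 (standard error 1.01, adjusted p = 0.00848, edgeR). miR403-5p, at -1.87 (0.90), missed the threshold with an adjusted p of 0.0538. miR168a-3p was at -1.17 (0.90, adjusted p = 0.232) and miR168a-5p/b-5p at -0.63 (0.87, adjusted p = 0.513). With 2 libraries per genotype and a shared biological coefficient of variation of 49.97%, differences of the size seen for miR168 were not detectable, which does not show that they are absent.

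In the order of the 59 log2 fold changes in hyl1-2, from the most negative, miR162a-3p/b-3p ranked 18, miR403-3p 25, miR403-5p 43, miR168a-3p 50 and miR168a-5p/b-5p 53. The median was -2.62 over all 59 and -1.87 over the 5. Both strands of miR168 stood above this median, miR168a-3p by 1.46 and miR168a-5p/b-5p by 1.99, and miR162a-3p/b-3p stood below it (difference -1.32). When libraries were scaled by the miRNA counts themselves, the median of all miRNAs moved to 0.12 with TMM factors and to -0.14 with total miRNA counts, and miR168a-5p/b-5p was then higher in hyl1-2 than in WT, with log2 fold changes of 2.09 (adjusted p = 0.00568, edgeR) and 1.82 (adjusted p = 0.00585, edgeR). miR168a-3p was higher with TMM factors (1.74, adjusted p = 0.0276, edgeR). miR162a-3p/b-3p stayed negative, at -1.01 with TMM factors (adjusted p = 0.142, edgeR) and -1.49 with total miRNA counts (adjusted p = 0.0176, edgeR), while miR403-3p was at -0.19 and -0.53 and no longer passed. miR403-5p changed sign, to 0.75 and 0.55, without passing in either direction.

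Single libraries also decided calls of these miRNAs, and the number of calls over all 59 changed too. Fewer of the 59 were lower when a WT or hyl1-2 library was left out, and more when a snrk2.2/3/6 library was. Their median log2 fold change stayed between -2.81 and -2.57 in these fits. Without hyl1-2 replicate 2, in which miR162a-3p/b-3p had its lowest value, the adjusted p of miR162a-3p/b-3p was 0.111, at a log2 fold change of -3.26. The adjusted p of miR403-3p was 0.106 without WT replicate 1, 0.0765 without WT replicate 2, 0.123 without hyl1-2 replicate 1 and 0.155 without hyl1-2 replicate 2, although its log2 fold change stayed between -2.81 and -3.18. miR403-5p passed when either snrk2.2/3/6 library was left out, with adjusted p-values of 0.0364 without replicate 1 and 0.0312 without replicate 2 (edgeR).

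In snrk2.2/3/6 against WT, 0 of the 5 miRNAs passed in either direction, where 3.39% of the 59 were lower and 0.0% higher, and 0 of the 5 were below an unadjusted p of 0.05. Log2 fold changes were -1.46 for miR162a-3p/b-3p (standard error 0.93, adjusted p = 0.384, edgeR) and -1.09 for miR168a-5p/b-5p (0.88, adjusted p = 0.465). They were -0.62 for miR403-3p (0.93, adjusted p = 0.770), -0.29 for miR168a-3p (0.88, adjusted p = 0.855) and 0.23 for miR403-5p (0.85, adjusted p = 0.877). The median of the 5 was -0.62 and that of all 59 was -0.72. With TMM factors the median of all became 0.07, and miR403-3p (0.07) and miR168a-3p (0.50) were then on the other side of 0.

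These values depended on which snrk2.2/3/6 library was used. Without replicate 1, miR403-3p was lower than in WT (-1.998 on the log2 scale, adjusted p = 0.0115, edgeR), and so was miR168a-5p/b-5p (-2.41, adjusted p = 0.0380, edgeR), while miR162a-3p/b-3p was at -2.59 (adjusted p = 0.0597, edgeR). In that fit 20 of all 59 miRNAs were lower and their median was -1.75. Without replicate 2 the same miRNAs were at 0.07, -0.41 and -0.83, with adjusted p-values of 0.859, 0.654 and 0.560 (edgeR). Of the 3 guide strands, miR162a-3p/b-3p was thus the one whose distance from WT was largest with each of the libraries.

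The mutants were also compared with each other, which tests whether the changes from WT differ. hyl1-2 had less miR162a-3p/b-3p, miR403-3p and miR403-5p than snrk2.2/3/6, 3 of 5, where 45.8% of the 59 were lower, and 0 of 5 were higher (0.0% of all). The log2 differences were -2.48 for miR162a-3p/b-3p (standard error 0.97, adjusted p = 0.0300, edgeR), -2.37 for miR403-3p (0.98, adjusted p = 0.0389) and -2.10 for miR403-5p (0.90, adjusted p = 0.0465). miR168a-3p was at -0.87 (0.90, adjusted p = 0.437) and miR168a-5p/b-5p at 0.45 (0.88, adjusted p = 0.701), so that the guide of AGO1 was the only one of the 5 with a positive value. It ranked 56 of 59 from the most negative, where the median of all was -2.10. With TMM factors, the total miRNA count or DESeq2's own size factors, miR168a-5p/b-5p was higher in hyl1-2 than in snrk2.2/3/6 by 2.44, 2.24 and 2.29 on the log2 scale (adjusted p = 0.00243 and 0.00330 by edgeR and 9.04e-05 by DESeq2), and none of the other 4 passed.

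The calls of this comparison were close to the threshold and were lost without any library other than snrk2.2/3/6 replicate 2. Fewer of all 59 miRNAs passed in each of these fits too, so the loss was not particular to the 3 miRNAs. The median difference of all 59 was -0.76 without snrk2.2/3/6 replicate 1 and -2.53 without replicate 2. It stayed at -2.10 without either WT library. For miR162a-3p/b-3p, miR403-3p and miR403-5p in this order, the adjusted p-values by edgeR were 0.133, 0.150 and 0.133 without WT replicate 1, and 0.120, 0.144 and 0.120 without WT replicate 2. WT does not enter this contrast, and without either WT library the log2 differences stayed at -2.48, -2.37 and -2.10, so that only the estimate of the spread had changed. They were 0.142, 0.277 and 0.292 without hyl1-2 replicate 1, 0.399, 0.323 and 0.103 without hyl1-2 replicate 2, and 0.203, 0.0563 and 0.581 without snrk2.2/3/6 replicate 1. Without snrk2.2/3/6 replicate 2 all 3 passed, at 0.0136, 0.000991 and 0.0136.

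**Figure D3:**
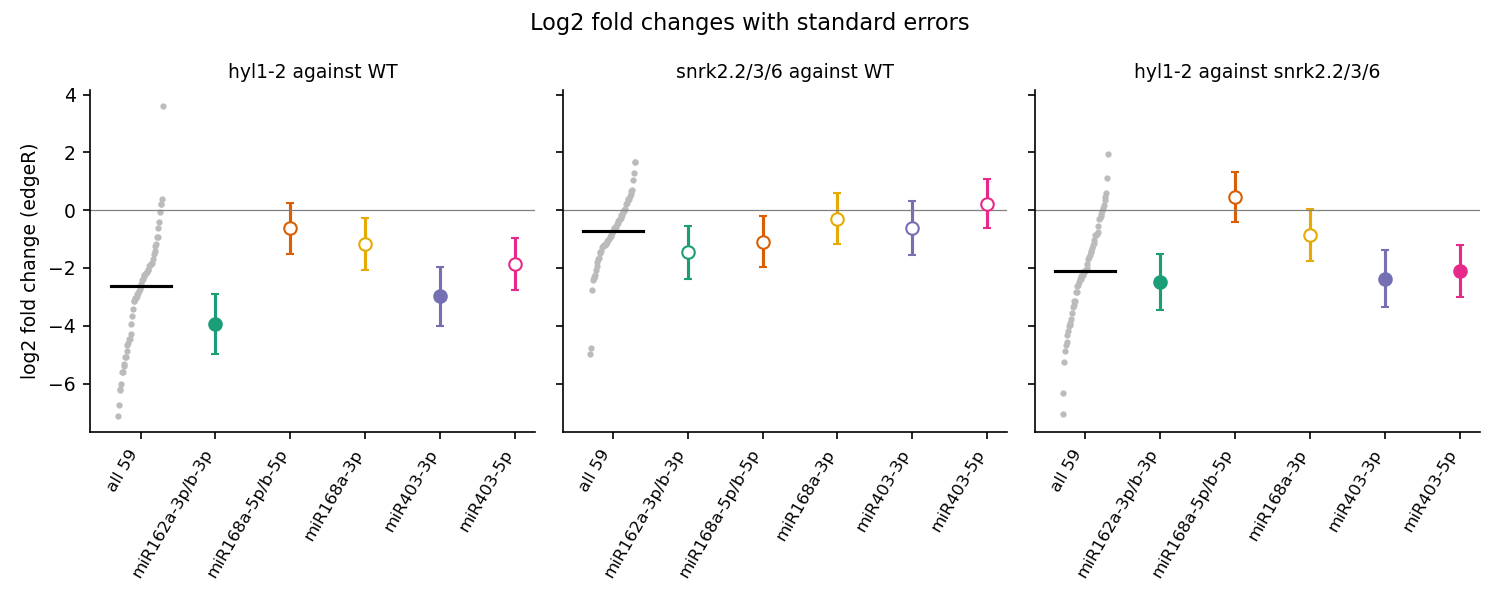
Log2 fold changes of the 5 tested miRNAs with standard errors from edgeR in hyl1-2 against WT, snrk2.2/3/6 against WT and hyl1-2 against snrk2.2/3/6, with grey points for all 59 tested miRNAs, a black line for their median, and filled symbols for an adjusted p under 0.05. In hyl1-2 against WT miR162a-3p/b-3p (-3.94) lies below the median of -2.62, and miR168a-5p/b-5p (-0.63) lies well above it.

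Ratios within a library do not depend on how the libraries were scaled. Per 100 reads of miR162a-3p/b-3p, WT held 9.23 and 8.54 reads of miR168a-5p/b-5p and snrk2.2/3/6 held 12.0 and 10, but hyl1-2 held 47.8 (95% Wilson interval of the ratio 33.5 to 68.4) and 257 (156 to 423). The hyl1-2 libraries were thus above all others and also far from each other. Per 100 reads of miR403-3p, WT held 15.3 and 12.6 reads of miR168a-5p/b-5p, snrk2.2/3/6 held 10 and 10.4, and hyl1-2 held 55.0 (38.1 to 79.3) and 93.1 (64.4 to 135). The AGO1 guide therefore took a larger share beside both other guides in each hyl1-2 library. Per 100 reads of miR162a-3p/b-3p, WT held 60.3 and 68.0 reads of miR403-3p, hyl1-2 held 87.0 (64.5 to 117) and 276 (169 to 453), and snrk2.2/3/6 held 120 (105 to 136) and 95.8 (74.3 to 124). All 4 mutant values were above both WT values, but the intervals of hyl1-2 replicate 1 and snrk2.2/3/6 replicate 2 overlapped with that of WT replicate 2 (60.3 to 76.7). With 2 libraries against 2 an exact permutation test of a ratio cannot give a two-sided p below 0.333, so that these ratios stand as values without a test.

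**Figure D4:**
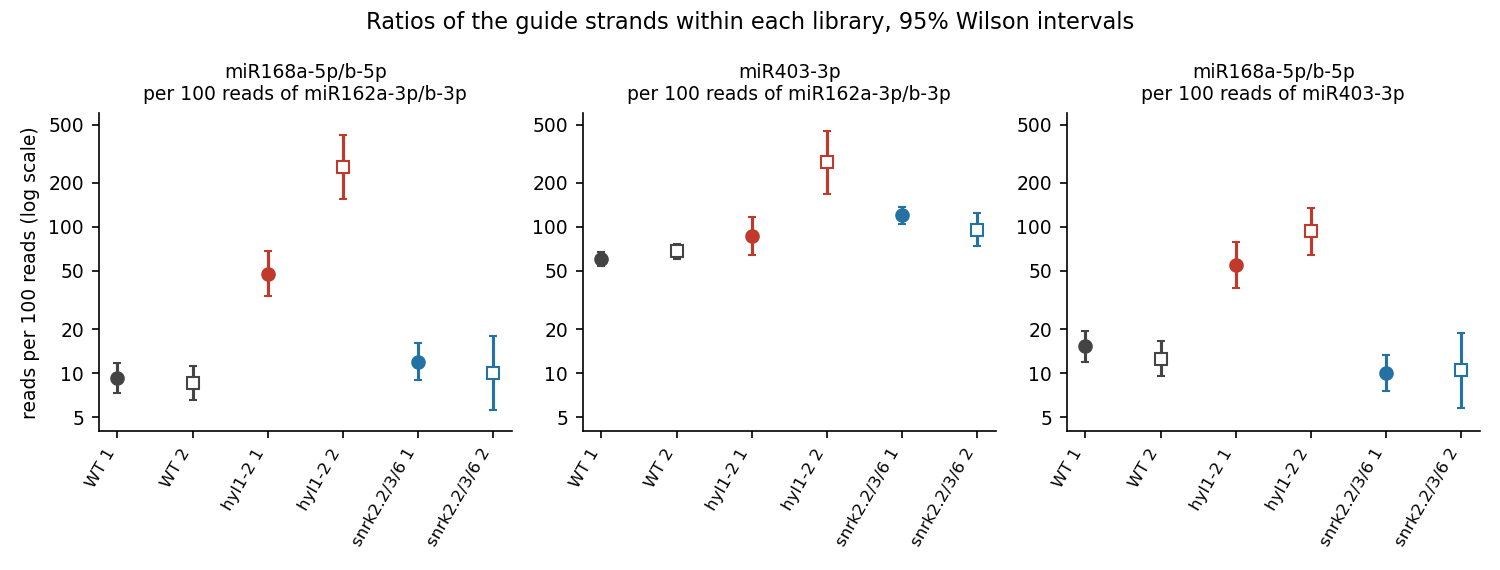
Reads of one guide strand per 100 reads of another in each library, on a log axis, with 95% Wilson intervals that cover counting error only. miR168a-5p/b-5p per 100 reads of miR162a-3p/b-3p is at 9.23 and 8.54 for WT, 12.0 and 10 for snrk2.2/3/6, and 47.8 and 257 for hyl1-2.

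Both strands of a hairpin come from the same precursor, and their shares differed among the families. The 5p strand of miR162 was 1.45% (95% Wilson interval 0.834 to 2.53%) and 0.606% (0.236 to 1.55%) of the miR162 reads in WT, and snrk2.2/3/6 had 0.930% and 0.826%. In hyl1-2 it was 0 of 92 and 0 of 21 reads, with 95% Wilson upper limits of 4.01% and 15.5% (the floor of 3 reads would be 3.26% and 14.3%), so that a difference from WT was not detectable at this depth. The 5p strand of miR403 was 6.67% (4.83 to 9.13%) and 9.16% (6.92 to 12.0%) in WT, 9.09% (4.68 to 16.9%) and 22.7% (14.7 to 33.3%) in hyl1-2, and 13.4% (10.9 to 16.4%) and 12.9% (8.20 to 19.7%) in snrk2.2/3/6. Both snrk2.2/3/6 libraries were above both WT libraries in this share and were close to each other, although their levels of miR403 were far apart (349 and 82.3 RPTM for both strands).

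In miR168, where the 5p strand is the guide, it made up 42.9% (35.8 to 50.3%) and 47.5% (38.7 to 56.4%) of the reads in WT. The share was 43.1% (33.9 to 52.8%) and 74.0% (62.9 to 82.7%) in hyl1-2 and 31.9% (25.2 to 39.4%) and 29.3% (17.6 to 44.5%) in snrk2.2/3/6. hyl1-2 replicate 2 stood above all other libraries, and both snrk2.2/3/6 libraries lay below both WT libraries, with intervals that overlap those of WT. The hyl1-2 replicates differed in opposite ways on the arms: from replicate 1 to replicate 2, 5p reads were 44 and 54 while 3p reads were 58 and 19. Of the 3p strands, miR168b-3p per 100 reads of miR168a-3p was at 7.53 and 24.0 for WT, 3.57 and 0 for hyl1-2, and 18.5 and 7.41 for snrk2.2/3/6, with no order among the genotypes beyond the spread of the replicates.

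**Figure D5:**
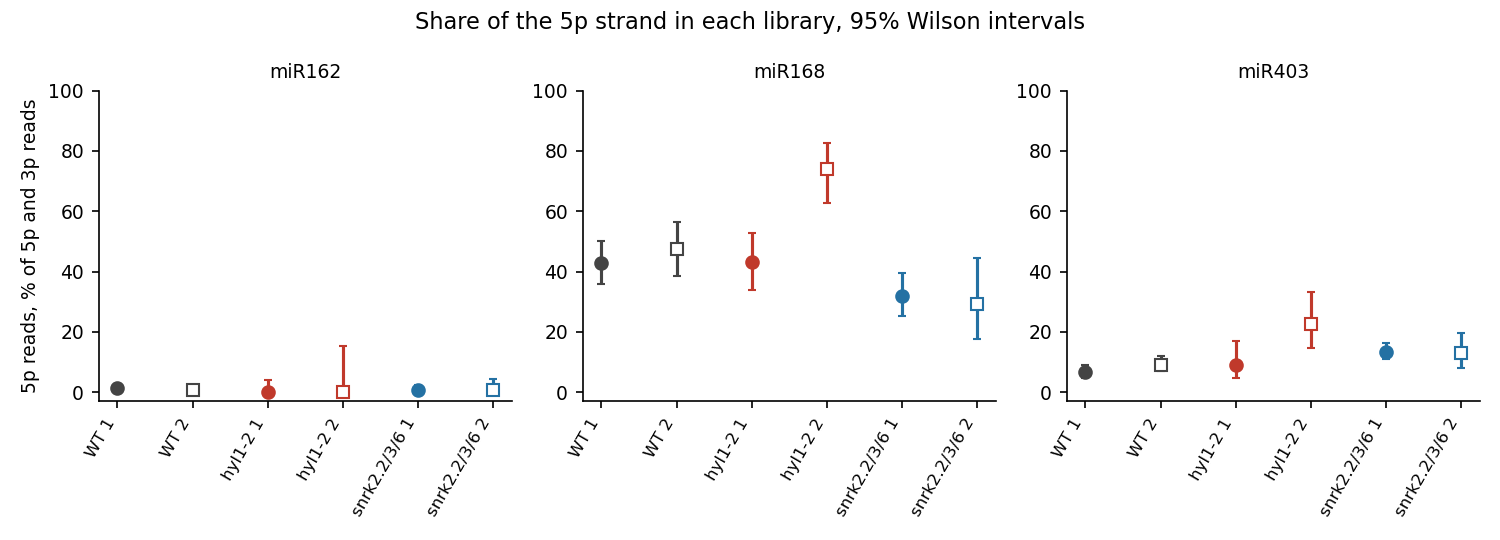
Share of the 5p strand among the reads of miR162, miR168 and miR403 in each library, in percent, with 95% Wilson intervals. The miR168 share is 74.0% in hyl1-2 replicate 2 and between 29.3% and 47.5% in the other libraries, and the miR403 share is 22.7% in hyl1-2 replicate 2 and between 6.67% and 13.4% elsewhere.

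For each of the 5 miRNAs, the 3 other tested sequences with the most similar pattern over the 6 libraries were found by the root mean square difference of log2(RPTM + 1) relative to the WT mean, as a description. miR162a-3p/b-3p was most like miR824-3p (0.43), miR391-5p (0.68) and miR825 (0.80), where the median over 58 candidates was 1.51. All 3 had at most 1 read in each hyl1-2 library. miR168a-5p/b-5p was most like miR396b-3p (0.23), miR408-3p (0.62) and miR5026 (0.62; median 1.38), and miR168a-3p was most like miR408-3p (0.63), miR166e-5p (0.66) and miR822-5p (0.68; median 1.18). miR403-3p was most like miR158b (0.23), miR158a-3p (0.31) and miR157a-5p/b-5p/c-5p (0.37; median 0.996). Of these, miR158b had only 1 read in each hyl1-2 library, below the floor. By edgeR its log2 fold change in hyl1-2 against WT was -4.47, where that of miR403-3p was -2.98. miR403-5p was most like miR166a-5p/b-5p (0.36), miR166e-5p (0.37) and miR395b/c/f (0.41; median 1.04). The libraries and their depth are shared by all of these, so that a likeness across 6 libraries says little about any pair.

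Other miRNAs tied to silencing are miR173, miR390 and miR828, which start the production of trans-acting siRNAs, and miR838, which is made from an intron of DCL1. The table holds 7 such sequences, of which 2 were tested, and 1 of these was lower in hyl1-2 (67.8% of all tested miRNAs) and 0 in snrk2.2/3/6 (3.39% of all). WT held 22 and 30 reads of miR173-5p, hyl1-2 held 1 and 0, and snrk2.2/3/6 held 35 and 7. Its pooled reads in hyl1-2 were 1.65% of WT (exact 95% interval 0.0410 to 9.62%; adjusted p = 0.000343, edgeR). Of miR390a-5p/b-5p, WT held 38 and 34 reads, hyl1-2 held 13 and 9, and snrk2.2/3/6 held 15 and 8, with log2 fold changes of -1.92 in hyl1-2 (adjusted p = 0.0538, edgeR) and -1.66 in snrk2.2/3/6 (adjusted p = 0.334, edgeR). miR838 had 2 and 2 reads in WT and 0 in all 4 mutant libraries, below the floor of 3 reads in every library, and miR828 had 0 reads in all 6.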

How the data were processed

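The authors sequenced on an Illumina HiSeq 2500, removed adaptors, retained reads between 18 and 30 nt, placed them on TAIR10 and counted those that equal a mature miRNA of miRBase release 21. The mapping tool and its settings are not given in the sources used here. The deposited counts are raw whole reads per mature sequence. The deposited RPTM is a signal: the authors divided a count by all genome-matched reads of its library and scaled it to 10000000. Because miRNAs are a small part of these reads, a change shared by most miRNAs stays visible in RPTM, and factors computed from the miRNA counts remove it.

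Genotype and replicate number came from the labels, and genome-matched totals were computed from counts and RPTM. The study names 2 biological replicates, and each library was taken as 1 replicate. A chi-square test of the counts found the libraries of a genotype further apart than sampling noise. Its values per degree of freedom were 10.5 for WT, 13.6 for hyl1-2 and 18.0 for snrk2.2/3/6, which does not by itself show biological replication. edgeR 4.0.16 (R 4.3.3; glmQLFit, glmQLFTest) was fitted to all 6 libraries with genotype as its single term, genome-matched totals and no TMM factors, on sequences with a mean of 10 reads or more, with Benjamini-Hochberg adjustment. The test was first run on simulated data with known changes. Standard errors were derived from the log2 fold change and F. Other steps used Python 3.11.15 with pandas 2.3.3, numpy 2.4.6, scipy 1.17.1 for intervals and matplotlib 3.10.9 for plots.

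The alternatives tried for edgeR were TMM factors, the miRNA total as library size, filters at a mean of 5 or 25 reads or none, fits restricted to the compared genotypes, a replicate block, and leaving out each library. DESeq2 1.42.0 was run with the genome-matched totals and with size factors of its own, and limma 3.58.1 on log2(RPTM + 1) and log2(RPTM + 0.5). For the 2-fold rule, other limits and scaling to miRNA reads were tried.

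All sequences named miR162, miR168 or miR403 are named, with the 3 most similar sequences of each tested one and single miRNAs of the list of trans-acting siRNA triggers and miR838. These miRNAs and lists were chosen with earlier results of these data known. Target sites were searched in the RefSeq transcripts of TAIR10.1. The files hold no coordinates.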

Additional observations from a re-analysis of the deposited data

Results flagged for a closer look

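Of the 5 tested miRNAs, 3 had changes from WT that differed in size in the mutants, by the direct edgeR comparison of hyl1-2 with snrk2.2/3/6, in which 45.8% of all 59 tested miRNAs were lower in hyl1-2. The change from WT in hyl1-2 minus that in snrk2.2/3/6 was -2.48 on the log2 scale for miR162a-3p/b-3p (adjusted p = 0.0300, edgeR), which was at 6.48% of WT in hyl1-2 and 36.3% in snrk2.2/3/6. It was -2.37 for miR403-3p (adjusted p = 0.0389, edgeR), at 12.6% and 65.2% of WT. It was -2.10 for miR403-5p (adjusted p = 0.0465, edgeR), at 27.2% and 117% of WT. Over the 18 alternatives the adjusted p ranged from 0.00646 to 0.666 for miR162a-3p/b-3p, from 0.000991 to 0.666 for miR403-3p and from 0.0136 to 0.854 for miR403-5p. The median difference of all 59 tested miRNAs was -2.10, so that these 3 lay close to the typical miRNA.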

How the results depend on the processing

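Calls rested on 2 libraries per genotype and a biological variation of 49.97%, and the 2 rare strands had too few reads to be tested. Over 15 log2 fold changes and 18 alternatives, 180 values kept their direction and their side of the threshold, 51 lost the call, 13 gained one and 26 changed sign.

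The number of tested miRNAs lower in hyl1-2 than in WT, 2, was 0 with TMM factors, 1 with total miRNA counts, 0 with DESeq2's own size factors and 0 of 7 without a filter on low counts, and the number higher, 0, was 2, 1 and 2 with the first 3 of these. Over all 59 miRNAs these 3 scalings called 15, 17 and 10 lower and 10, 8 and 10 higher, in place of 40 and 1, and without a filter 0 of all 174 passed (64 lower at an unadjusted p under 0.05). The number lower was 3, with miR403-5p added, by DESeq2 on genome-matched totals and by limma with either pseudocount. It was also 3 with a filter at 25 reads and in a fit of only the 2 genotypes. Over all tested miRNAs these settings, in this order, called 45, 43 and 43 of 59, 24 of 35 and 48 of 59 lower. In hyl1-2 against snrk2.2/3/6 the number lower, 3, was 0 with TMM factors, total miRNA counts, DESeq2's own size factors and no filter. It was also 0 in a fit of only the 2 genotypes, and 1 by limma with either pseudocount. The number higher, 0, was 1 with each of the 3 scalings. Over all 59 miRNAs, 8, 13 and 8 were then lower and 10, 10 and 10 higher, in place of 27 and 0. Without a filter 0 of 174 passed (40 lower at an unadjusted p under 0.05). The fit of only the 2 genotypes called 12 of 59 lower, and limma 26 and 25 with a pseudocount of 1 and 0.5. By the 2-fold rule, scaling to total miRNA reads gave 1 in place of 4 in hyl1-2 and 0 in place of 2 in snrk2.2/3/6. A stricter limit of 3-fold also gave 0 in snrk2.2/3/6. The share of all miRNAs was not counted under any alternative to this rule. Leaving out single libraries gave medians of the 5 log2 fold changes from -2.56 to -1.68 in hyl1-2 against WT. Those of all 59 ran from -2.81 to -2.57. In snrk2.2/3/6 against WT the medians ran from -1.998 to 0.07 for the 5 and from -1.75 to -0.22 for all 59. In hyl1-2 against snrk2.2/3/6 they ran from -2.81 to -0.67 and from -2.53 to -0.76. By the 2-fold rule these omissions gave 3 to 4 of the 5 in hyl1-2 and 0 to 5 in snrk2.2/3/6.

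Signs changed as follows, in log2 units, with TMM factors, total miRNA counts and DESeq2's own size factors in this order. In hyl1-2 against WT, miR168a-3p became 1.74, 1.30 and 1.45, miR168a-5p/b-5p 2.09, 1.82 and 1.95, and miR403-5p 0.75, 0.55 and 0.66. miR168a-3p became 0.50, 0.42 and 0.52 in snrk2.2/3/6 against WT and 1.23, 0.88 and 0.94 in hyl1-2 against snrk2.2/3/6. miR403-3p in snrk2.2/3/6 became 0.069 with TMM factors and 0.081 with DESeq2's own size factors, and miR403-5p became -0.11 and -0.12 by limma with a pseudocount of 1 and 0.5. With single libraries left out, values in snrk2.2/3/6 against WT ranged from -1.38 to 0.31 for miR168a-3p, from -1.998 to 0.075 for miR403-3p and from -1.20 to 0.93 for miR403-5p, and in hyl1-2 against snrk2.2/3/6 from -1.78 to 0.21 for miR168a-3p and from -0.22 to 1.78 for miR168a-5p/b-5p. The cause was not tested.

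The titles number the replicates alike in each genotype, but no label says that a number marks a shared batch, and over the tested miRNAs the deviations of libraries with the same number correlated at 0.29 (WT and hyl1-2), -0.30 (WT and snrk2.2/3/6) and -0.18 (hyl1-2 and snrk2.2/3/6). With the number as a replicate block, 2 of the 5 were lower in hyl1-2, 0 in snrk2.2/3/6 and 2 in hyl1-2 against snrk2.2/3/6. Over all 59 tested miRNAs 38, 3 and 26 were lower with this block. A block with the snrk2.2/3/6 numbers crossed, added after seeing the data, gave 3, 0 and 0 (42, 2 and 19 of all 59). With it miR403-5p in snrk2.2/3/6 was at -0.079.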

Other observations

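Other miRNA families conserved among flowering plants, a list from miR156 to miR827 without miR162, miR168 and miR403, give the setting for these values. miR390, named above among the triggers of trans-acting siRNAs, is counted in this list too. The table holds 85 of their sequences and 36 were tested. In hyl1-2, 24 of the 36 were lower than in WT and 0 were higher by edgeR, with a median log2 fold change of -2.41, against 2 of 5 and -1.87 for miR162, miR168 and miR403. In snrk2.2/3/6, 2 of the 36 were lower and 0 higher, with a median of -0.92, and between the mutants 13 of 36 were lower in hyl1-2, with a median of -1.76. The changes in hyl1-2 of these 36 ranged from -6.20 to 0.37, so that the values of -3.94 for miR162a-3p/b-3p and -0.63 for miR168a-5p/b-5p both lie inside their range.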
